A study of Caenorhabditis elegans with 16 samples.

Results

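The cytoplasmic ribosomal protein genes of *C. elegans* were taken as all protein-coding genes of the WBcel235 annotation (Ensembl release 115) whose symbol is *rpl-* or *rps-* followed by a number, which leaves out the mitochondrial *mrpl-* and *mrps-* genes. This gave 78 genes of the 19985 protein-coding genes, 47 named for the large and 31 for the small ribosomal subunit. Each overlapped at least 1 GATC fragment, as did 19983 of all protein-coding genes. The products that RefSeq lists for these identifiers contained the word ribosomal or ribosome for 75 of the 78. The other products were those of *rps-30*, a ubiquitin-like fusion gene, *rps-10*, which carries an eS10 domain, and *rpl-42*, listed as a NAM-associated domain protein with no link to the ribosome. *rpl-24.2* is listed as a putative ribosome biogenesis protein, RLP24, and was kept because the symbol fits.

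Ribosomes are built from ribosomal RNA and from a fixed set of proteins that sit on a large subunit, which joins amino acids, and a small subunit, which reads the messenger RNA. Every cell needs these proteins in matched amounts, and their genes are short and belong to the most heavily transcribed genes of growing animals. Larval seam cells are stem-like epidermal cells that divide asymmetrically in every larval stage. The hypodermis is the large syncytial skin that receives many of their daughters. Both grow throughout larval life.

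The study used Targeted DamID (TaDa), in which a bacterial adenine methyltransferase (Dam) fused to RPB-6 marks GATC sites near transcribing polymerase in chosen cells, and methylated GATC fragments are then amplified from whole-animal DNA and sequenced. RPB-6 is a subunit that RNA polymerases I, II and III share, so the signal is not specific to polymerase II. The tested animals carried dam:*rpb-6* and the controls dam:NLS-GFP, a Dam fused to a nuclear fluorescent protein that reports accessible chromatin. Occupancy is log2(dam:*rpb-6*/dam:NLS-GFP), averaged over the fragments that overlap a gene with weights equal to the overlapped length.

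In seam cells at L4 and at L2, the animals carried *srf-3i1::pes-10* driving dam:*rpb-6* (strain MBA698), set against *srf-3i1::pes-10* driving dam:NLS-GFP (MBA692). In hypodermis at L4 and at L2, *dpy-7syn1* drove dam:*rpb-6* (MBA688) or dam:NLS-GFP (MBA693). All transgenes were single-copy insertions downstream of an mCherry reading frame, which keeps Dam levels low, and each strain is 1 insertion line. All animals grew at 20 °C on bacteria without *dam* and *dcm* and were collected 24 h (L2) or 48 h (L4) after seeding, with 2 replicates of each fusion in each group, 16 samples in all. The promoters, not a sort, define the cell type.

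Some facts about the series bear on every value below. The profile of seam L4 replicate 1 against control 1 was left out: over all fragments it correlated at r = 0.996 with the difference between the 2 control libraries as seen through replicate 2, and at r = -0.35 with the same replicate set against control 2. Seam L4 is therefore given as replicate 1 against control 2 and replicate 2 against control 1, and every other group as replicate 1 against control 1 and replicate 2 against control 2. Read counts are not in the files used here, so the depth of each library is unknown. Between 14.8% and 44.6% of all fragments had a score of exactly 0, against 0% to 8.28% of the fragments of ribosomal protein genes, where the highest share was in seam L2 replicate 1. The 7 seam cell markers had a median occupancy of 2.26 and 1.56 in seam cells at L4 and L2, against -0.0040 and -0.0027 in hypodermis. The 4 hypodermis markers had medians of 1.30 and 1.71 in hypodermis and of 0.79 and 0.48 in seam cells at L4 and L2. Of these, *dpy-7* and *elt-3* were higher in seam cells at L4, with 4.003 against 2.11 in hypodermis for *dpy-7* and 1.12 against 0.71 for *elt-3*. The 4 body wall muscle markers had a median of 1.00 in seam cells at L2, with 0.43 in replicate 1 and 1.56 in replicate 2. Their medians were below 0 in the other 3 groups, though *unc-54* had 0.14 in seam cells at L4. The part of muscle DNA in the seam L2 values was not tested.

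TaDa sees a gene only through its GATC sites, so the first sequences shown are a pair of ribosomal protein genes of the same size that differ in those sites. *rpl-37* (eL37; III:3528642-3528917, plus strand) and *rpl-43* (eL43; II:14155294-14155569, plus strand) are both single-exon genes of 276 bases, coding from start to stop, and were picked for this contrast after their values were seen. GATC sites are in capitals, and the sequence is the WBcel235 genome as held by RefSeq.

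rpl-37: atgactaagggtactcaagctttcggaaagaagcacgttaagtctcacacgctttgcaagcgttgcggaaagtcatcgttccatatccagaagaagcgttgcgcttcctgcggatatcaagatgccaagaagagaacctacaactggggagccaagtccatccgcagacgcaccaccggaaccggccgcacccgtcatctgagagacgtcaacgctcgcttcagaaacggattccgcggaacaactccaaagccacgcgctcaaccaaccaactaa

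rpl-43: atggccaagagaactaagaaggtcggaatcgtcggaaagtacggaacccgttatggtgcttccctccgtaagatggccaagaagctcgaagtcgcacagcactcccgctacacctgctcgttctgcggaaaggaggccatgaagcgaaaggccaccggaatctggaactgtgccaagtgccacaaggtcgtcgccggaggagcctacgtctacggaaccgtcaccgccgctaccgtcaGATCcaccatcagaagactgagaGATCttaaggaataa

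*rpl-37* holds 0 GATC sites and lies inside a single fragment of 1276 bp, of which it fills 276. Its occupancy was -0.00 and -0.00 in seam cells at L4, 0.02 and -0.04 at L2, -0.00 and -0.02 in hypodermis at L4, and -0.19 and 0.00 at L2. *rpl-43* holds 2 sites near its 3′ end, which divide it among fragments of 686, 23 and 301 bp. Its occupancy was 2.25 and 1.99 in seam cells at L4, 1.42 and 2.78 at L2, 2.57 and 0.67 in hypodermis at L4, and 1.76 and 1.07 at L2. All 8 values of *rpl-43* lay above all 8 values of *rpl-37*.

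The ribosomal protein genes as a set stood far above the other genes in every profile. Their median occupancy was 2.00 and 1.65 in the 2 replicates of seam cells at L4, 0.73 and 2.01 in seam cells at L2, 1.98 and 1.48 in hypodermis at L4, and 2.30 and 1.46 in hypodermis at L2. The medians over all genes lay between -0.069 and 0.072 in the same profiles. The 75th percentile of all genes was 0.26 or below in each profile, under the ribosomal protein medians throughout. Of the 78 genes, 55 had an occupancy above 0 in 8 of 8 profiles and 72 in at least 7. The 6 below that count were *rpl-11.1*, *rps-28*, *rpl-28*, *rpl-41.1*, *rpl-37* and *rpl-42*.

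**Figure D1:**
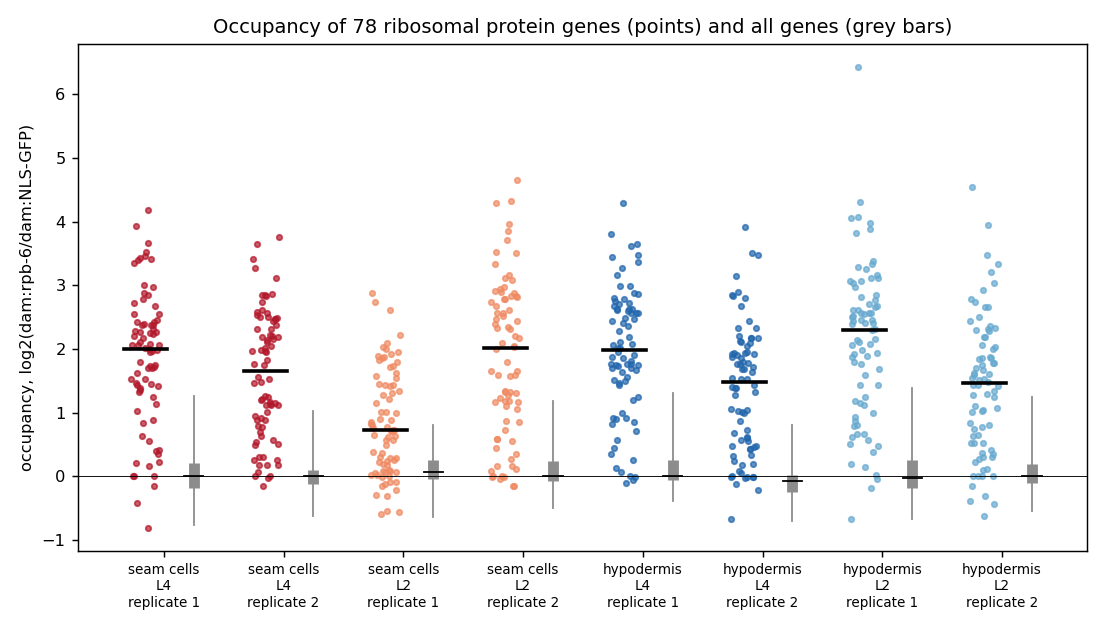
Occupancy (log2 of dam:rpb-6 over dam:NLS-GFP) of the 78 ribosomal protein genes in the 8 profiles, 2 replicates for each cell type and stage. Each point is a gene and the thick black lines are their medians; the grey bars give the 25th to 75th percentiles of all 19983 genes, the thin grey lines their 5th to 95th percentiles and the short black lines their medians. The ribosomal protein medians lie between 0.73 (seam cells at L2, replicate 1) and 2.30, and the medians of all genes near 0.

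The mean over the 4 groups ran between -0.26 (*rpl-42*) and 4.01 (*rpl-1*), with a median of 1.77. It was at least 1 for 57 of the 78 genes, against 4.27% of all genes, and at least 2 for 23, against 0.931% of all genes. Set against all genes, 67 of the 78 were at or above the 90th percentile and 25 at or above the 99th. Since genes differ in their number of fragments, each ribosomal protein gene was also ranked among the other genes with the same number of fragments. There, 71 of the 78 were at or above the 90th percentile, and the median rank was the 98.8th percentile.

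Tested over replicates with limma (log2 scale, Benjamini-Hochberg adjustment over all 19983 genes), the mean of the 4 groups was above 0 for 61 of the 78 genes and below 0 for 0. Among all genes, 14% were called above 0 by this test, and 1481 of 19983 were called below 0. The share of genes called was 36 of 47 for the large subunit and 25 of 31 for the small subunit. Group medians were 1.79 and 1.77 in seam cells at L4, 1.24 and 1.38 in seam cells at L2, 1.65 and 1.98 in hypodermis at L4, and 1.80 and 2.12 in hypodermis at L2, for large and small subunit genes in that order. Within single groups, where 2 replicates carry the estimate, far fewer genes passed. In seam cells at L4, 15 of the 78 were above 0 (2.56% of all genes). In seam cells at L2, 4 were (0.2% of all genes). In hypodermis, 12 were at L4 (1.49% of all genes) and 23 at L2 (5.33% of all genes). With the replicates of a strain as a block, a fit added after seeing the data, the mean of the groups was above 0 for 52 genes, and 0 genes passed in any single group. The share of all genes above 0 in that fit is not given here. Leaving out 1 replicate of a group left 0 calls above 0 in that group, except in seam cells at L2 without replicate 2, where 4 genes passed.

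The largest values belonged to genes of both subunits. *rpl-1*, the gene of uL1 in the large subunit's stalk (I:2875398-2876308), had 3.35 and 3.65 in seam cells at L4, 2.22 and 4.29 at L2, 4.29 and 3.91 in hypodermis at L4, and 6.43 and 3.95 at L2. All 8 of its fragments had mean scores over the profiles of 2.31 to 4.51. *rps-13*, the gene of uS15 in the small subunit (III:6374097-6374997), had 3.40 and 3.12 in seam cells at L4, 2.73 and 3.86 at L2, 3.48 and 3.48 in hypodermis at L4, and 3.89 and 4.55 at L2. *rps-13* was among the steadiest of the high genes. Its mean was 3.56 (SE 0.15, adjusted p = 0.000980 by limma), and *rpl-1* had a mean of 4.01 (SE 0.36, adjusted p = 0.00331).

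*rpl-10* encodes uL16, which helps form the peptidyl transferase region, and had a mean of 3.07 (SE 0.37, limma adjusted p = 0.00652). *rpl-3* encodes uL3, a core protein of the large subunit, and averaged 3.03 (SE 0.27). *rps-5* encodes uS7, which lines the exit for the transfer RNA in the small subunit. It had 2.73 and 2.85 in seam cells at L4, 2.88 and 3.33 at L2, 3.45 and 2.85 in hypodermis at L4, and 3.06 and 2.50 at L2. These 5 genes, the highest among those with at least 3 fragments, were each called occupied in all 4 groups by the call described next.

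**Figure D2:**
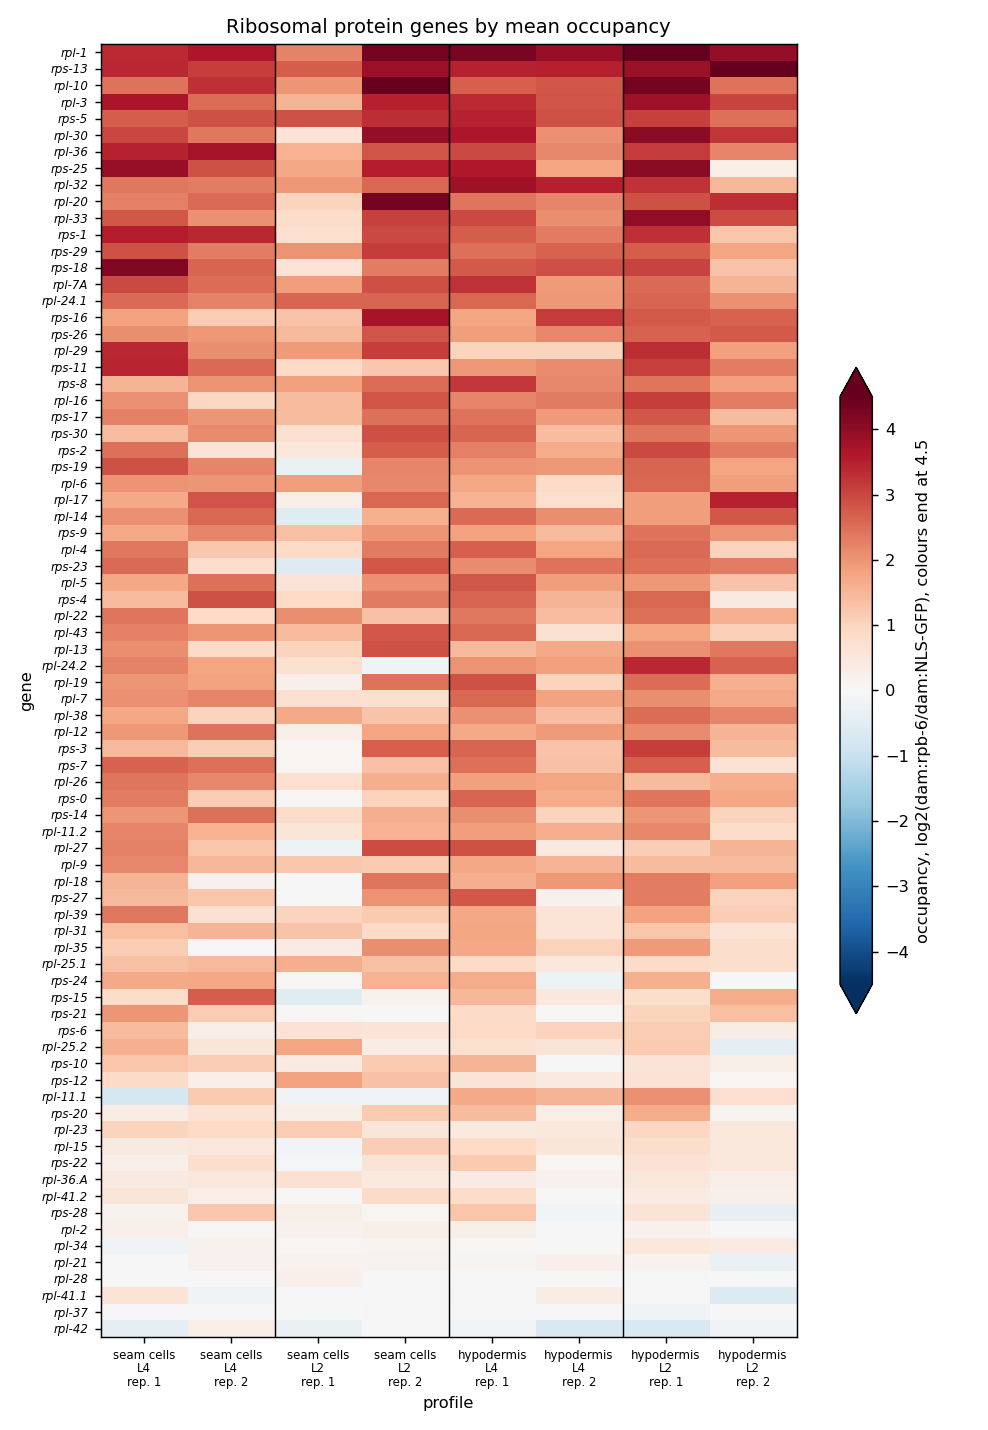
Occupancy (log2 of dam:rpb-6 over dam:NLS-GFP, colour; the colours end at 4.5) of each ribosomal protein gene (rows, highest mean at the top) in the 8 profiles (columns). The top rows are high in all 8 profiles, the bottom rows stay near 0 in all of them, and the columns of seam cells at L2 differ between replicates, with medians of 0.73 and 2.01.

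The study called genes as occupied by setting a gene's mean score in the averaged profile against means of as many fragments drawn at random from the same profile. A call of this kind was made here with its own settings, 50000 draws from the mean of a group's pairwise profiles (4, or 3 in seam cells at L4) and a Benjamini-Hochberg adjusted p under 0.05, so its gene lists are not the study's. It took 42 of the 78 genes in seam cells at L4, where it took 5.69% of all genes. It took 29 in seam cells at L2 (4.24% of all genes), 46 in hypodermis at L4 (7.05%) and 44 in hypodermis at L2 (7.49%). In all 4 groups together, 23 of the 78 were called, against 459 of all genes (2.30%), and 26 of the 78 were called in 0 groups. Without replicate 2, 13 were called in seam cells at L2. In these calls a gene's mean was weighted by overlapped length, while each drawn fragment counted equally. Draws weighted by fragment length come closer to how the gene means were made. They took 26, 18, 30 and 33 genes in seam cells at L4 and L2 and hypodermis at L4 and L2. The share of all genes called with these draws is not given here.

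A gene on few fragments must be much higher to be called, since the mean of few random fragments varies more. In seam cells at L4, the lowest occupancy called was 2.60 for genes with 2 fragments and 1.01 for genes with 8 fragments. Of the 772 genes with 1 fragment, the call took 1 in seam cells at L2 and 0 in the other 3 groups. This bears on the ribosomal protein genes because they are short, with a median length of 754 bp and a median of 4 fragments. *rpl-2*, *rpl-28* and *rpl-37* had 1 fragment each, 12 genes had 2, and *rpl-12*, the gene of the stalk base protein uL11, had the most, 11.

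Of the 15 ribosomal protein genes with 1 or 2 fragments, 2 were called in each group. The genes were *rps-25*, *rpl-29* and *rpl-30*, named here after their values were seen. Of the other genes with 1 or 2 fragments, between 0.192% and 0.336% were called. Of the 39 ribosomal protein genes with 3 or 4 fragments, 20 were called in seam cells at L4, 12 in seam cells at L2, 24 in hypodermis at L4 and 22 in hypodermis at L2. The other genes with 3 or 4 fragments were called at 1.02% to 2.08%. Of the 24 ribosomal protein genes with 5 or more, 20, 15, 20 and 20 were called in the same order of groups. The other genes with 5 to 11 fragments were called at 3.07% to 6.21%. Median occupancy followed the same steps less steeply, with 0.80 for 1 or 2 fragments, 1.81 for 3 or 4 and 1.88 for 5 or more. The other genes had medians between -0.0082 and 0.0032 in these classes.

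Occupancy also varied with fragment length. Across the 78 genes, mean occupancy had a Spearman correlation of -0.55 with the mean length of the gene's fragments and of 0.31 with their number. Both are descriptions across genes that share libraries, not tests. The fragments themselves scored highest at middle lengths. Of the 326 distinct fragments that touch a ribosomal protein gene, the 78 of at most 100 bp had a median score of 1.65 and the 60 above that and up to 200 bp 2.02. The 76 of 201 to 400 bp had a median score of 2.55 and the 45 of 401 to 600 bp 1.75. The 22 of 601 to 800 bp had 1.555, the 23 of 801 to 1000 bp 0.59 and the 22 over 1000 bp 0.25. The median absolute score of the other genes had the same shape, with 0.11 up to 100 bp, 0.31 at 201 to 400 bp and 0.029 over 1000 bp. Fragments wholly inside a ribosomal protein gene were 174 in number and at most 800 bp long. Their median scores rose with length. They were 1.67 for the 77 of at most 100 bp, 2.13 for the 49 up to 200 bp and 2.65 for the 40 of 201 to 400 bp. The 7 of 401 to 600 bp had 2.74 and the 1 of 601 to 800 bp 3.64. The lower scores of long fragments thus came with fragments that reach outside the gene, and the part of length itself was not tested.

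**Figure D3:**
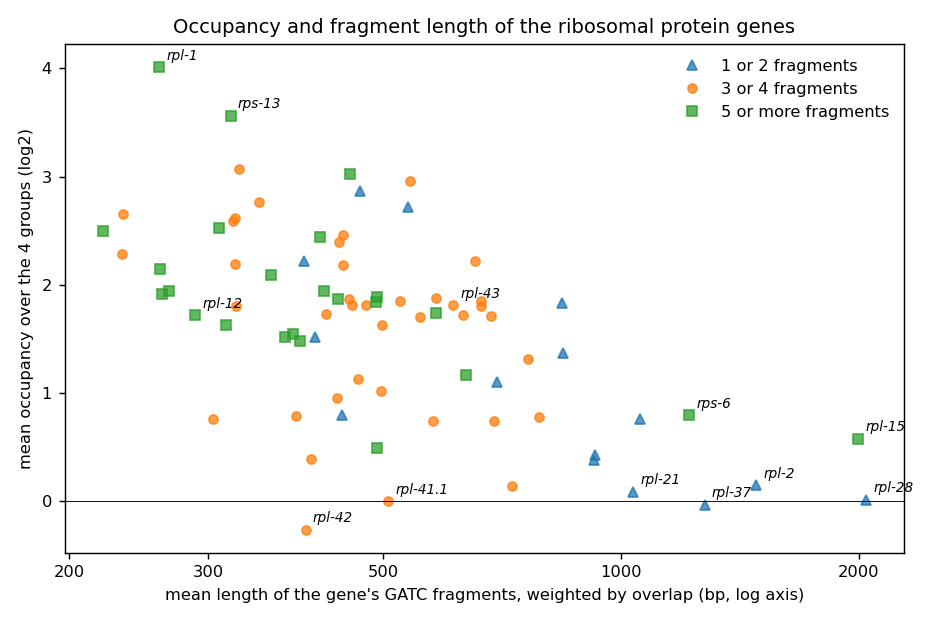
Mean occupancy over the 4 groups (log2) of the 78 ribosomal protein genes against the mean length of their GATC fragments (bp, log axis), with symbols for the number of fragments. rpl-1, on fragments of 260 bp on average, reaches 4.01, and the genes on fragments averaging over 1000 bp stay at or below 0.80; rpl-42 (-0.26) is low on fragments of 399 bp on average.

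Several of the lowest ribosomal protein genes lay on long fragments. *rpl-28* (eL28) sat in 1 fragment of 2044 bp and had values between -0.05 and 0.23. *rpl-2*, the gene of uL2, a core protein of the large subunit, sat in 1 of 1484 bp and had values between -0.01 and 0.27. *rpl-21* (eL21) had a mean of 0.09 with fragments of 1037 bp on average.

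Genes that straddle a long and several short fragments showed both levels inside one gene. *rps-6* encodes eS6, the small subunit protein that S6 kinase phosphorylates downstream of TOR, and spans I:13952161-13953203. It had 1.43 and 0.25 in seam cells at L4, 0.64 and 0.58 at L2, 0.90 and 1.05 in hypodermis at L4, and 1.16 and 0.35 at L2. Its first 550 bases lay in a fragment of 2188 bp that scored 0.14 on average, and its 5 shorter fragments scored 1.01 to 2.00. *rpl-15* (eL15) had a fragment of 2830 bp over 757 of its bases with a score of 0.015, and fragments of 267 and 107 bp with 3.04 and 2.54. Its 3 other short fragments, next to the long one, scored 0.020 to 0.029. *rps-22*, a small subunit gene that RefSeq calls *rps-15A*, averaged 0.50. It had 437 of its bases in a fragment of 727 bp that scored 0.074, while its fragments of 159, 27 and 154 bp scored 1.21, 1.67 and 0.91.

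When only fragments of at most 600 bp were kept, an alternative chosen after seeing these values, 74 of the 78 genes had a value and their median was 2.16. *rps-6* then averaged 1.53 and *rpl-15* 1.84. *rps-27*, *rpl-2*, *rpl-28* and *rpl-37* had no such fragment. On the short fragments *rpl-21* averaged 0.0036. *rps-28*, the gene of eS28, averaged -0.026 on its short fragment, against 0.38 over both of its fragments.

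Not every low gene lay on long fragments. *rpl-42* (II:11092713-11094022), the gene without a ribosomal product, lay on 4 fragments of 276 to 533 bp, which scored -0.58 to -0.095 on average. It had -0.42 and 0.26 in seam cells at L4, -0.31 and -0.01 at L2, -0.11 and -0.68 in hypodermis at L4, and -0.67 and -0.15 at L2. It was the only ribosomal protein gene by symbol below the 20th percentile of genes with as many fragments, at the 11.7th. *rpl-34* (eL34), with a mean of 0.14, had 294 of its bases in a fragment of 1035 bp that scored 0.11 on average. Its fragments of 138 and 582 bp scored 0.14 and 0.30.

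Some genes share a number, and those pairs were compared because reads of near-identical copies can be split between them. *rpl-41.1* and *rpl-41.2* both encode the very short protein L41 and lie 699 bp apart on chromosome I. Their coding sequences are identical at 65 of 66 bases, with a longest shared run of 35 bases. Whether reads were split between the 2 copies was not tested, so their values are given with caution. Neither has a GATC site in its coding sequence. *rpl-41.1* had 0.63 and -0.15 in seam cells at L4, -0.10 and 0.00 at L2, -0.05 and 0.33 in hypodermis at L4, and 0.01 and -0.63 at L2, and *rpl-41.2* a mean of 0.39 (SE 0.14, limma adjusted p = 0.103).

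*rpl-11.1* and *rpl-11.2* both encode uL5, which binds the 5S ribosomal RNA. Their coding sequences are 84.2% identical, with no shared run over 35 bases. The second coding exon has the same length in both genes and differs at 22 of 216 bases, and the exons are shown because one of these differences makes a GATC site (capitals) in *rpl-11.2* alone. The exon lies at V:3585658-3585873 in *rpl-11.1* and at X:2242214-2242429 in *rpl-11.2*, both on the minus strand of WBcel235.

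rpl-11.1: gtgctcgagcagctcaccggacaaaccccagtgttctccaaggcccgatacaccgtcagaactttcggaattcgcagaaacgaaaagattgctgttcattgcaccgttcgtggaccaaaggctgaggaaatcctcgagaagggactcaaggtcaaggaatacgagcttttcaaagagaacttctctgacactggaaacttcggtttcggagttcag

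rpl-11.2: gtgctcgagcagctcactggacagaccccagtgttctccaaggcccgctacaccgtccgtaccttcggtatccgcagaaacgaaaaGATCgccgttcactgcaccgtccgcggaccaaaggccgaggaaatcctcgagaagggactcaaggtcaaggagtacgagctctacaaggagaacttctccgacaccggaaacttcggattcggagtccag

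*rpl-11.1* had -0.81 and 1.17 in seam cells at L4, against 1.70 and 1.53 in hypodermis at L4. At L2 it had -0.16 and -0.15 in seam cells, against 2.06 and 0.74 in hypodermis. Its replicates stayed apart at both stages, the seam cell values being the lower, as in 2.56% of the 78 and 3.8% of all genes. The differences were -1.44 (SE 0.74, limma adjusted p = 1) at L4 and -1.56 (SE 0.74, limma adjusted p = 0.547) at L2, and neither passed. *rpl-11.2* had 2.21 and 1.55 in seam cells at L4 and 1.87 and 1.64 in hypodermis at L4. At L2 its seam cell values were 0.56 and 1.57, against 2.15 and 0.84 in hypodermis, so the cell types overlapped for this copy at both stages. Within *rpl-11.1* the scores differed along the gene. The fragment over its 3′ part averaged 0.62 and -0.015 in seam cells at L4 and L2, against 2.73 and 2.50 in hypodermis, and the fragment over its start was below 0 in all 4 groups.

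*rpl-25.1* and *rpl-25.2* both encode uL23, at the exit of the peptide tunnel, and share 68.9% of their coding bases. *rpl-25.1* had 1.33 and 1.47 in seam cells at L4, against 0.91 and 0.47 in hypodermis at L4. At L2 it had 1.62 and 1.33 in seam cells, against 0.87 and 0.81 in hypodermis. It was the only ribosomal protein gene whose replicates lay higher in seam cells at both stages without overlap, 1.28% of the 78 against 5.38% of all genes. The differences were 0.71 (SE 0.18, limma adjusted p = 0.762) at L4 and 0.64 (SE 0.18, limma adjusted p = 0.356) at L2, and neither passed. *rpl-25.1* shares fragments with its neighbours *glit-1* and *F55D10.4*, so its values cannot be assigned to it alone. *rpl-25.2* had 1.62 and 0.53 in seam cells at L4, 1.79 and 0.35 at L2, 0.71 and 0.57 in hypodermis at L4, and 1.19 and -0.44 at L2, with overlap at both stages.

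*rpl-24.1* (eL24) had 2.54 and 2.22 in seam cells at L4, 2.60 and 2.62 at L2, 2.60 and 1.94 in hypodermis at L4, and 2.61 and 2.06 at L2. *rpl-24.2*, whose product acts in the nucleolus on the maturing large subunit in yeast, shares 47.2% of its coding bases. The remaining pairs share a number only. *rpl-7* (uL30) and *rpl-7A* (eL8) had means of 1.74 and 2.44, and *rpl-36* (eL36) and *rpl-36.A* (eL42) had 2.77 and 0.43. *rpl-36.A* lay on fragments of 927 bp on average and *rpl-36* on fragments of 348 bp.

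Occupancy rose after the gene start and fell slowly beyond the median gene length of 754 bp. Averaged over the 78 genes in 100-bp bins, it was 0.65 in seam cells at L4, 0.41 in seam cells at L2, 0.52 in hypodermis at L4 and 0.65 in hypodermis at L2 at 350 bp before the annotated start. It was highest at 550 bp after the start, with 1.99, 1.61, 1.96 and 2.04 in the same order. At 1950 bp after the start, past the end of every gene of the set, it was 0.50, 0.43, 0.53 and 0.59. The other genes had between 0.04 and 0.09 at 550 bp. The 3′ side of the gene, past its midpoint, was higher than the 5′ side in 47 to 56 of the 78 genes, by profile, with median differences of 0.11 to 0.47. A fragment that crosses the midpoint gives both sides the same score. The genes fill only part of the fragments they touch, and a median of 48.9% of the fragment bases lay outside the gene.

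**Figure D4:**
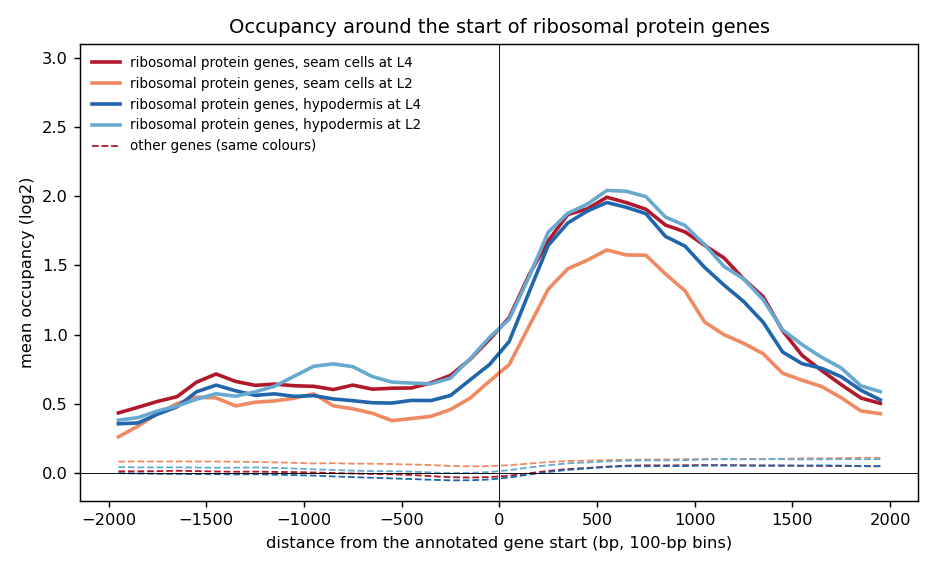
Mean occupancy (log2) in 100-bp bins from 2000 bp before to 2000 bp after the annotated gene start, for the 78 ribosomal protein genes (solid lines) and all other genes (dashed lines) in each cell type and stage. The ribosomal protein genes are highest 550 bp after the start, at 1.99, 1.61, 1.96 and 2.04 for seam cells at L4 and L2 and hypodermis at L4 and L2, while the other genes reach at most 0.11.

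The neighbours of the ribosomal protein genes were mostly lower. Of the 148 nearest coding genes that are not ribosomal protein genes themselves, 132 had a lower mean occupancy than the ribosomal protein gene beside them, and their median was 0.34. The 70 that shared a fragment with it had a median of 0.53, and the 78 that did not had 0.22. Among the exceptions was *glit-1*, 97 bp from *rpl-25.1*, with 2.30 against 1.10. *sec-61.A*, the gene of the protein-conducting channel of the endoplasmic reticulum, had 2.79 beside *rps-18* with 2.46. *fib-1*, the gene of the nucleolar protein fibrillarin, was nearly level with its neighbour, at 2.21 beside *rps-16* with 2.28. These neighbours were chosen after their values were seen. In 14 ribosomal protein genes another coding gene overlaps the gene body. Another coding gene reaches into the fragments of 65 of the 78, so part of the signal of those 65 cannot be assigned.

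Of the adjacent pairs of ribosomal protein genes, *rps-14* and *rpl-36*, *rps-10* and *rpl-24.1*, and *rpl-39* and *rps-30* are transcribed away from each other. Their means were 1.62 and 2.77, 0.78 and 2.40, and 1.31 and 1.94 in that order of genes, and the differences within pairs were not tested. Small nucleolar RNA genes lie inside 13 ribosomal protein genes. These had a median mean occupancy of 1.85, against 1.72 for the 65 without. No transfer RNA gene lay in the fragments of any of the 78.

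The genes were spread unevenly over the chromosomes. Chromosome I held 23 of them (29.5%) but 14.4% of all genes, and the X chromosome 2 (2.56%) but 13.7% of all genes. Their median occupancy was between 1.32 on X and 1.94 on IV. In the window of 250 bases before to 50 after the start, GATC was present in 29 of the 78 (37.2%), against 47.7% of all genes. The GATA-type motif TGATAA, on either strand, was present in 23 (29.5%), against 30.2% of all genes. Median occupancy was 1.81 with and 1.73 without TGATAA.

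The comparison of cell types asks whether occupancy of these genes differs between seam cells and hypodermis of the same stage. At L4 their median difference (seam cells minus hypodermis) was 0.03, against 0.0070 for all genes, and by limma 0 genes of the 78 and 0 of all genes passed at an adjusted p under 0.05. At an unadjusted p under 0.05, 2 were higher in seam cells (2.57% of all genes) and 0 lower (2.25% of all genes). Replicates did not overlap for 16 genes that were higher in seam cells, 20.5% of the 78 against 19.82% of all genes, and for 9 that were lower, 11.5% against 12.82%. With 2 samples a group, an exact permutation test cannot go below a two-sided p of 0.333.

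At L2 the median difference was -0.29, against 0.058 for all genes, and 0 genes passed in the set or among all genes. At an unadjusted p under 0.05, 2 were higher in seam cells (4.88% of all genes) and 5 lower (5.49% of all genes). Replicates did not overlap for 4 genes higher in seam cells, 5.13% of the 78 against 24.17% of all genes. They did not overlap for 13 that were lower, 16.7% against 15.16%. The 2 seam replicates lay far apart at L2, with a median SD of 0.72 over the 78 genes, against 0.38 in seam cells at L4. In hypodermis it was 0.39 at L4 and 0.49 at L2. Without seam L2 replicate 1 the median difference was 0.15, and without replicate 2 it was -0.85, so its direction rests on 1 profile, a ratio of 2 libraries. Over both stages, replicates lay apart in the same direction for *rpl-25.1*, higher in seam cells (5.38% of all genes), and for *rpl-11.1* and *rps-13*, lower in seam cells (3.8% of all genes).

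**Figure D5:**
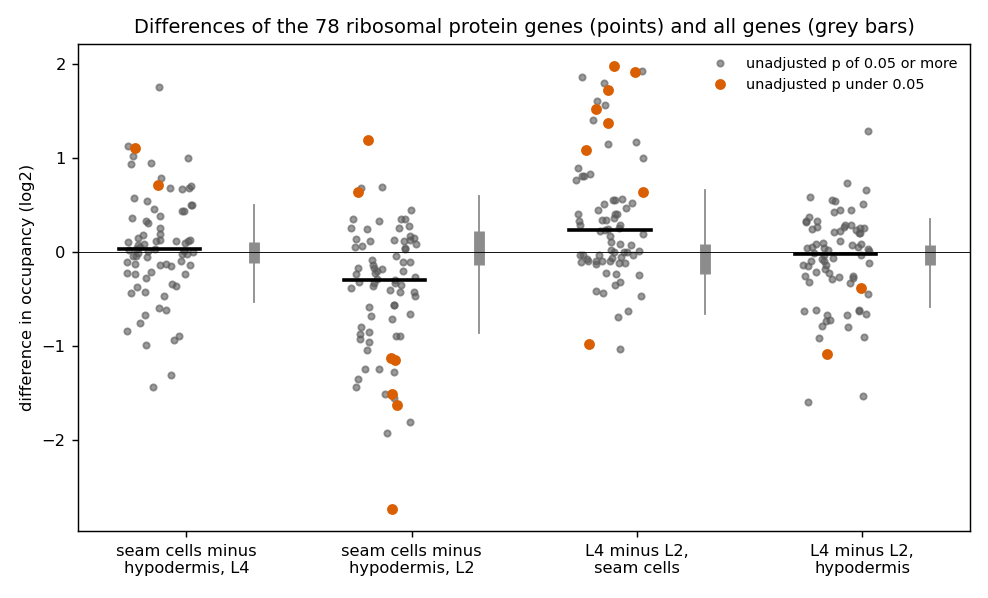
Differences in occupancy (log2) of the 78 ribosomal protein genes between seam cells and hypodermis at each stage and between L4 and L2 in each cell type. Each point is a gene, orange where the unadjusted limma p is under 0.05; thick lines are medians (0.03, -0.29, 0.24 and -0.02), and grey bars and lines give the 25th to 75th and the 5th to 95th percentiles of all genes.

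The largest single differences between cell types stayed short of the threshold. *rpl-24.2* had 0.72 and -0.16 in seam cells at L2, against 3.39 and 2.66 in hypodermis at L2. The replicates did not overlap. The difference was -2.74 (SE 0.39, limma adjusted p = 0.163). At L4 its seam cell values were 2.24 and 1.77, against 2.01 and 1.86 in hypodermis, with overlap. With each replicate averaged over both controls, *rpl-24.2* passed at L2 (-2.82, limma adjusted p = 0.0378), as it did when a single control served every replicate. Such replicates share control libraries, which narrows their spread.

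*rpl-1* at L2 had 2.22 and 4.29 in seam cells, against 6.43 and 3.95 in hypodermis, a difference of -1.93 (SE 1.01, limma adjusted p = 0.575), with overlap. The highest at L2 among genes with at least 3 fragments were *rpl-25.2* at 0.69 (SE 0.75) and *rpl-43* at 0.69 (SE 0.76). At L4 *rpl-32* (eL32) had 2.38 and 2.32 in seam cells, against 3.81 and 3.51 in hypodermis, a difference of -1.31 (SE 0.59, limma adjusted p = 1). *rpl-17* (uL22) had 1.71 and 2.82 in seam cells, against 1.55 and 0.72 in hypodermis. *rpl-36* had 3.46 and 3.75 in seam cells at L4, against 2.99 and 2.17 in hypodermis, a difference of 1.03 (SE 0.56, limma adjusted p = 1), with no overlap.

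The comparison of stages asks whether occupancy differs between L4 and L2 in the same cell type. In seam cells the median difference (L4 minus L2) was 0.24, against -0.065 for all genes, and 0 genes passed by limma among the 78 or among all genes. At an unadjusted p under 0.05, 7 were higher at L4 (3.31% of all genes) and 1 lower (5.5% of all genes). Replicates did not overlap for 17 genes higher at L4, 21.8% of the 78 against 11.14% of all genes, and for 3 lower, 3.85% against 24.08%. These counts rest on the same seam L2 libraries. Without seam L2 replicate 1 the median difference was -0.11, and without replicate 2 it was 0.76. In hypodermis the median difference was -0.02, against -0.0068 for all genes, and 0 genes passed. At an unadjusted p under 0.05, 0 were higher at L4 (0.931% of all genes) and 2 lower (3.45% of all genes). Replicates did not overlap for 3 genes higher at L4 (9.913% of all genes) and for 15 lower (18.48% of all genes). Leaving out hypodermis L2 replicate 2 gave a median of -0.42 and leaving out hypodermis L4 replicate 2 gave 0.26.

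In seam cells *rps-15* (uS19) had 0.83 and 2.73 at L4, against -0.56 and 0.16 at L2, a difference of 1.98 (SE 0.75, limma adjusted p = 0.556). *rps-18* (uS13) had 4.18 and 2.61 at L4, against 0.62 and 2.32 at L2. Replicates of both lay higher at L4 without overlap. *rps-11* (uS17), outside the rule for named genes, had 3.43 and 2.53 at L4, against 0.89 and 1.22 at L2, with the lowest unadjusted p among the 78 in this comparison (0.00360, limma adjusted p = 0.385). On the other side, *rps-16* (uS9) had 1.80 and 1.13 at L4, against 1.27 and 3.72 at L2, and *rpl-35* (uL29) had 1.13 and -0.03 at L4, against 0.38 and 2.09 at L2. Both overlapped.

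In hypodermis *rpl-32* had 3.81 and 3.51 at L4, against 3.25 and 1.49 at L2, a difference of 1.29 (SE 0.59, limma adjusted p = 1), with no overlap. *rpl-5* (uL18), which binds the 5S RNA beside uL5, had 2.80 and 1.88 at L4, against 1.94 and 1.27 at L2, with overlap. *rpl-17* had 1.55 and 0.72 at L4, against 1.87 and 3.48 at L2, and *rpl-1* had 4.29 and 3.91 at L4, against 6.43 and 3.95 at L2.

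The stage change was also compared between the cell types (seam cells minus hypodermis). Its median over the 78 genes was 0.22, against -0.050 for all genes, and 0 genes passed among the 78 or in all. At an unadjusted p under 0.05, 4 were higher (3.2% of all genes) and 1 lower (2.69% of all genes). The highest was *rpl-24.2* at 2.81 (SE 0.55, limma adjusted p = 0.768).

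Other genes of translation showed a graded picture, each list given by its count above 0 in the mean of the groups. The 5 other ribosome components, the stalk genes *rla-0*, *rla-1* and *rla-2* and the ubiquitin fusions *ubl-1* and *ubq-2*, were above 0 in 5 of 5, with a median of 1.84. *rla-1* averaged 3.12 (SE 0.35, limma adjusted p = 0.00526). Of 40 translation factors, 19 were above 0, and their median was 0.48. The highest were *eef-1A.1* and *eef-1A.2*, which encode the elongation factor that brings aminoacyl-tRNA to the ribosome, with 4.05 and 3.09. *eef-2*, the translocase, had 2.27 and *inf-1*, the helicase eIF4A, had 2.03. Most initiation factor subunits were under 1.

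Of 18 ribosome biogenesis genes, 7 were above 0, with a median of 0.29. Of 6 RNA polymerase I genes, 2 were, with a median of 0.20, and of 9 genes of the TOR pathway, which sets ribosome production by nutrients, 4 were, with a median of 0.55. The mitochondrial ribosomal protein genes, whose products build a separate ribosome, stood near the other genes. Of 70, 13 were above 0 and 1 below, with a median of 0.12. Among all genes, 14% were above 0 and 1481 of 19983 below.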

How the data were processed

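The authors aligned TaDa reads to WBcel235 (the submitters' processing notes name Bowtie2 2.3.4 and SAMtools 1.9) and deposited, for each pair of a dam:*rpb-6* and a dam:NLS-GFP library, a normalised log2 ratio for every GATC fragment, 16 pairwise profiles and 4 averaged profiles. 4 deposited gene lists hold the authors' own calls (mean score, GATC number and false discovery rate) and were not used. Gene occupancy was the length-weighted mean of the fragment scores, with 1 profile per replicate. limma 3.58.1 in R 4.3.3 tested occupancy in 1 model of 4 groups, with Benjamini-Hochberg adjustment over 19983 genes. The gene call was adapted from the study's, with 50000 random draws, the mean of the pairwise profiles and a Benjamini-Hochberg adjustment. Python 3.11.15, numpy 2.4.6 and pandas 2.3.3 did the rest, and both tests were tested on simulated data. Depth per library is unknown.

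The ribosomal protein genes, gene lists and markers were chosen with earlier results of these data known. Genes named with values were those sharing a number, the 5 highest and 5 lowest means and the 2 largest differences in each direction among genes with at least 3 fragments, any past the limma threshold, those with 0 or the most fragments, and *rps-6*, *rpl-11.1* and *rpl-11.2*. Others were named after their values were seen. By the growth protocol in the labels, each replicate had its own plates, and 1 population of a strain supplied both of its stages. Deviations of same-numbered samples correlated at r = -0.12 in seam cells and 0.23 in hypodermis, and the fit with the block is given beside the results it changes. Other averagings, control pairings, scalings, thresholds and left-out replicates were tried.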

Additional observations from a re-analysis of the deposited data

Results flagged for a closer look

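The profile of seam L4 replicate 1 against control 1, which enters no comparison, held a small signal over the ribosomal protein genes. Their median was 0.14, against 0.068 for all genes, 49 of the 78 were above 0, and values ran between -1.59 and 2.24. In the 2 profiles used for seam L4 the medians were 2.00 and 1.65. The difference between the 2 seam L4 control libraries, seen through replicate 2, had a median of 0.14 over the same genes.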

How the results depend on the processing

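Depth per library is unknown, 2 replicates carry each group, and long fragments and genes with few fragments limit what a mean can show. For single ribosomal protein genes, 2107 values kept their direction and their side of the threshold under an alternative, 143 lost the threshold, 51 gained it and 23 changed sign. For the counts and medians over the set, 342 values stayed close to the reported one and 71 did not. The cause of these shifts was not tested, except where the construction gives it.

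With replicate 1 against control 1 and replicate 2 against control 2 in every group, which takes in the profile left out elsewhere, the median in seam cells at L4 was 0.83, the mean of the groups was above 0 for 36 genes, single groups for 0, 0, 0 and 8 (seam cells at L4 and L2, hypodermis at L4 and L2, the order used throughout), and the median difference between seam cells and hypodermis at L4 was -0.87. Fragments lying mostly inside the gene gave a median of 2.13 in seam cells at L4 and 2 genes above 0 in seam cells at L2. Fragments of at most 600 bp, chosen after seeing the data, gave medians of 2.22 and 2.22 in seam cells and hypodermis at L4. The gene call took 26, 18 and 30 genes in the first 3 groups with length-weighted draws and 27, 16 and 30 at an adjusted p under 0.01. In seam cells at L2 it took 13 to 39 genes with 1 replicate left out.

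Counts of genes above 0 in single groups (15, 4, 12 and 23) moved most. The shares of all genes above 0 under the other settings are not given here. A rise or fall in these counts therefore cannot be read as particular to the ribosomal protein genes. Averaging each replicate over both controls gave 45, 19, 39 and 43. A single control for every replicate gave 21, 37 and 51 in the last 3 groups (control 1) and 38, 17, 40 and 39 (control 2), and in these settings replicates share a control library, so their spread leaves it out. Crossed controls gave 1 in seam cells at L2 and 20 in hypodermis at L4. Unweighted means gave 24 in seam cells at L4. Leaving out scores of 0 gave 36, 10, 23 and 37, centring and scaling gave 28, 22 and 25 in the first 3 groups, and quantile normalisation gave 32, 24 and 29. A trended prior gave 0 in seam cells at L2 and in hypodermis at L4. Leaving out 1 replicate of the group, where the remaining one is assumed to vary like the other groups, gave 0, 0 to 4, 0 and 0, and left the mean of the groups above 0 for 47 to 60 genes. Leaving out seam L2 replicate 1 and seam L4 replicate 1 together, chosen after seeing the data, gave 0, 0, 0 and 12, and 44 for the mean of the groups.

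The replicate block gave 0 genes above 0 in seam cells at L2 and 13 in hypodermis at L2. The replicate block by strain, added after seeing the data, gave 0 in each group, and with the pairs crossed in seam cells it gave 0 in seam cells at L2. For the mean of the groups the 3 fits gave 56, 52 and 61.

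Differences between groups were called for 0 ribosomal protein genes. With control 1 alone, 1 and 6 passed between the cell types at L4 and L2, and 2 and 2 between the stages in seam cells and in hypodermis. Seam L4 then has 1 profile, which is assumed to vary like the other groups, so its 1 and 2 calls rest on no spread of their own. With control 2 alone, 2 passed between the cell types at L2, 2 between the stages in hypodermis and 1 in the stage change. *rpl-42*, the gene without a ribosomal product, was among the genes called with each control. Its L4 minus L2 difference in hypodermis was 0.53 with control 1 and -0.55 with control 2, so its sign turned with the control. With both controls averaged, 1 passed between the cell types at L2 (*rpl-24.2*) and 1 between the stages in seam cells (*rpl-26*, 1.53). For these settings the shares of all genes called are not given here. The counts therefore cannot be read as particular to the ribosomal protein genes.

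Signs turned mostly for values near 0. The mean of *rpl-41.1* (0.0059) was -0.071 with the profile left out elsewhere, -0.0022 with crossed controls, -0.045 and -0.040 with control 1 or 2 alone, -0.0011 unweighted, -0.063 with fragments mostly inside the gene and -0.00034 scaled, and -0.092 to 0.10 with a replicate left out. The mean of *rps-28* was -0.026 on fragments of at most 600 bp, and that of *rpl-28* ran between -0.016 and 0.046 with a replicate left out. With replicates left out, the L4 minus L2 difference in hypodermis ran between -2.33 and 0.15 for *rpl-1*, and in seam cells between -2.59 and 0.19 for *rps-16* and between -2.12 and 0.16 for *rpl-35*. The seam minus hypodermis difference at L2 ran between -0.12 and 1.51 for *rpl-25.2*. With the profile left out elsewhere, *rps-18* had -0.20 for L4 minus L2 in seam cells and *rpl-36* -0.73 for seam cells minus hypodermis at L4.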
